A study of Mus musculus with 3 samples.

Results

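The genes described here are 10 transcription factors of epidermal differentiation, *Gata3*, *Prdm1*, *Foxc1*, *Trp63*, *Klf4*, *Grhl3*, *Ovol1*, *Zfp750*, *Cebpa* and *Cebpb*, chosen by name out of 19927 gene symbols. All 10 were found in each of the 3 libraries. These libraries are single-cell libraries of trypsin-isolated epidermal and hair follicle cells from mouse dorsal skin at P18 (postnatal day 18). Control 1 and control 2 came from *Vdr* flox/flox mice, and the remaining library came from *Vdr* flox/flox; Krt14cre mice, called *Vdr* cKO. All mice thus carry the floxed *Vdr* alleles, and the Cre is driven by the *Krt14* promoter, which is active in basal keratinocytes and the outer root sheath. The skin of 3 male mice was pooled in each library per the study's methods, so single mice cannot be compared.

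A keratinocyte starts in the basal layer, where it expresses *Krt14*, moves to the spinous layer, where *Krt10* is switched on, and ends in the granular layer, where *Lor* encodes a main protein of the cornified envelope. *Trp63* encodes p63, which founds and maintains the basal state of stratified epithelia. *Ovol1*, *Klf4*, *Grhl3* and *Zfp750* are used as cells leave that state and build the barrier, and *Cebpa* and *Cebpb*, both leucine zipper factors, act in commitment and cell cycle exit. *Prdm1* encodes the repressor Blimp1, known from granular cells and the sebaceous gland. *Gata3* is known from the inner root sheath (IRS), the epidermis and T cells, and *Foxc1* from hair follicle (HF) stem cells. The paper also places Foxc1 in the IRS, the isthmus and the sebaceous gland.

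The libraries held 1480, 1658 and 2622 kept cells with 18802408, 28690129 and 30954897 counts, and the median cell had 4190, 4492.5 and 4055 counts. Values below are CPM (counts of a gene scaled to a total of 1e+06 counts over the cells pooled), in the order control 1, control 2 and the *Vdr* cKO-labelled library. Transcripts of the last library went against the stated male sex of its mice, and its *Vdr* level does not settle the genotype. *Vdr* was at 40.7, 35.9 and 80.8 CPM, so not lower there, although counts per gene cannot separate transcripts with and without the floxed exon. *Xist*, which is transcribed in female cells, was at 0, 0 and 142 CPM, and 4 Y-linked genes summed to 234, 211 and 77.6 CPM, so sex and genotype cannot be told apart between libraries. Between 18 and 21 kept barcodes of a library, or 0.686% to 1.35%, also occurred among the kept barcodes of another. With 1 *Vdr* cKO library no test between genotypes was possible, and cells are not replicates. Intervals are exact 95% Poisson intervals that cover counting error only, and copies made by PCR make them too narrow.

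*Foxc1* (chr13:31806633-31812476, plus strand), *Klf4* (chr4:55527143-55532466, minus strand) and *Prdm1* (chr10:44437177-44528501, minus strand) were among the 4 genes over 1.5-fold from both controls in the *Vdr* cKO-labelled library. Their promoters are shown to give the sequence context of these 3 genes, as the 250 bases before the start in RefSeq (GRCm38.p6), written 5′ to 3′ on the strand of the gene. For *Foxc1* and *Prdm1*, and for *Gata3* named below, this start lies inside the gene span, which is from GENCODE M21. It is thus not the outermost start of the gene. For *Foxc1* the bases shown end at 31806645, past the start of the span at 31806633. Capitals mark matches, on either strand, to letters bound by the families named below.
Foxc1 promoter (chr13:31806396-31806645, plus strand): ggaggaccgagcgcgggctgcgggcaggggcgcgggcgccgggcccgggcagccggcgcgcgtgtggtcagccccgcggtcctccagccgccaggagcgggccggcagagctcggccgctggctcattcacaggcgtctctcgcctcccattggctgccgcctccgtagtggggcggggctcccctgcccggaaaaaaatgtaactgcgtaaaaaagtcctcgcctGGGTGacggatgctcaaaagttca
Klf4 promoter (chr4:55532476-55532725, minus strand): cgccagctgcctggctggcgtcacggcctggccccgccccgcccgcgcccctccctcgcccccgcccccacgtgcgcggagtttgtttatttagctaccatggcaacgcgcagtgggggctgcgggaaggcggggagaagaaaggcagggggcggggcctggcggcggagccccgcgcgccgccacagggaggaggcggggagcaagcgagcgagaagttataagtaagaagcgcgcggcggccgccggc
Prdm1 promoter (chr10:44458749-44458998, minus strand): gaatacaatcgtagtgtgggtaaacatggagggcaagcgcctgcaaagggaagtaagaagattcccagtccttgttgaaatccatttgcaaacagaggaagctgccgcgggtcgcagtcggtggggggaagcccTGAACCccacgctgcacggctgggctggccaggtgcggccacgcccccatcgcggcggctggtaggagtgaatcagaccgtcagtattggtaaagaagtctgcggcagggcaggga
GC content was 70.8%, 74.0% and 59.2%, and the median over all 32851 promoters was 52.4%. Both strands were searched for a half-site of the vitamin D receptor (VDR), written AGGTCA, and for a second form of it, written GGTTCA. The other letters searched were GATAA for GATA factors, CACCC for factors of the KLF family, AACCNG for factors of the GRHL family and TATAAA for the TATA box. No match overlapped another in the 3 promoters shown. The *Prdm1* promoter held GGTTCA on the opposite strand, 116 bases before the start, as 8.85% of all promoters did on either strand. The *Foxc1* promoter held CACCC on the opposite strand, 24 bases before the start, as 52.0% did. The *Klf4* promoter held none of the 6. Promoters were found for 7 of the 10 genes, and *Trp63*, *Ovol1* and *Zfp750* had no entry. AGGTCA, in 14.0% of all promoters, was in none of the 7, and GATAA, in 22.6%, was in none either. AACCNG, in 33.9%, was found in *Gata3* and *Cebpa*, and TATAAA, in 12.4%, in *Cebpa*, 30 bases before the start.

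The first question was how the level of each factor differed between the *Vdr* cKO-labelled library and both controls. *Foxc1* was the one gene over 2-fold from both controls, on the higher side, and *Trp63* was also higher, while *Klf4* and *Prdm1* were lower. Of the 3919 genes that reached 50 CPM in any library, 5.03% differed over 2-fold from both controls with 1 CPM added to each level, 3.88% higher and 1.15% lower, and 1 of the 10 factors did. At 1.5-fold, 4 of the 10 were called, *Foxc1* and *Trp63* higher and *Klf4* and *Prdm1* lower, where 14.2% of all genes were called in either direction. The level of 3 factors was above both controls by any amount and that of 5 was below both, where 38.4% and 35.9% of all genes were. The median log2 fold was 0.049 over the 10 factors and 0.0017 over all genes. In pooled libraries, fewer cells of a type and less RNA per cell cannot be told apart.

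*Foxc1*, a forkhead factor of quiescent HF stem cells, had a level of 15.6 CPM (13.8 to 17.5) in the first control, of 17.4 CPM (15.9 to 19.0) in the other and of 57.2 CPM (54.6 to 59.9) in the *Vdr* cKO-labelled library. The controls overlapped within counting error, and the third library was 3.47-fold above their mean (log2 fold 1.73). *Foxc1* passed the 50 CPM limit only through that library, so it could be called in the higher direction alone. Its counts sat in few cells: 29, 62 and 243 cells had any. The cell with most counts held 43.7% and 16.6% of them in the controls and 3.61% in the third library. Without the 5 cells with most counts, the levels were 5.0, 8.82 and 48.9 CPM. Among the genes that reached 10 CPM in any library, 7.97% were over 2-fold higher than both controls.

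*Trp63* was at 123 CPM (118 to 128) and 134 CPM (129.99 to 138) in the controls and at 249 CPM (244 to 255) in the *Vdr* cKO-labelled library. The gap to each control was larger than that between the controls, with a log2 fold of 0.95 against 0.13 between controls in size. Leaving out the 5 cells with most *Trp63* counts gave 83.2, 116 and 232 CPM, so the order of the libraries was kept. *Trp63* lies at chr16:25683763-25892102, plus strand, and its counts do not separate the long and short forms of p63.

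*Klf4*, a barrier factor, was at 1891 CPM (1872 to 1911) and 1619.7 CPM (1605 to 1635) in the controls and at 909.7 CPM (899 to 920.4) in the *Vdr* cKO-labelled library. The intervals of the controls, which are too narrow where PCR copies were counted, did not overlap. The third library was 1.93-fold below the mean of the controls (log2 fold -0.95). Without the 5 cells with most *Klf4* counts, the levels were 1637, 1505 and 842 CPM. A cell with any *Klf4* count had 48.1, 46.4 and 19.4 of them on average, and this number was lowest in the third library for all 10 factors, those with a higher level included. *Prdm1* was at 83.9 CPM (79.8 to 88.1), 85.0 CPM (81.7 to 88.5) and 51.7 CPM (49.2 to 54.3), which was 1.63-fold below the mean of 2 controls that agreed within counting error. The 5 cells with most counts held 33.7%, 24.9% and 19.8% of its counts. Without them *Prdm1* was at 55.6, 63.9 and 41.5 CPM. The third library was then still below both controls, but by less than 1.5-fold from control 1.

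The other 6 factors lay within 1.5-fold of at least 1 control. *Zfp750* (chr11:121510978-121519333, minus strand) was lowest in the *Vdr* cKO-labelled library, with 255, 296 and 179 CPM (log2 fold -0.62). *Ovol1* (chr19:5549136-5560646, minus strand) was at 105, 86.7 and 75.7 CPM, and its log2 fold of -0.34 was close in size to the 0.28 between the controls. *Grhl3* (chr4:135541888-135573630, minus strand) was at 46.4, 82.0 and 79.0 CPM, so that the controls lay further apart, by 0.81 on the log2 scale, than the third library from their mean. *Gata3* (chr2:9857078-9890034, minus strand) was at 645, 598 and 744 CPM, 1.15-fold and 1.24-fold above the controls. *Cebpa* (chr7:35119293-35121928, plus strand) was at 232, 239.9 and 228 CPM and *Cebpb* (chr2:167688915-167690418, plus strand) at 309, 248 and 309 CPM, in both cases within or near the range of the controls. Exons of *Gata3*, *Ovol1*, *Cebpa* and *Cebpb* overlap those of other genes in GENCODE M21, and whether counting used strand is not given in the sources used here.

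**Figure D1:**
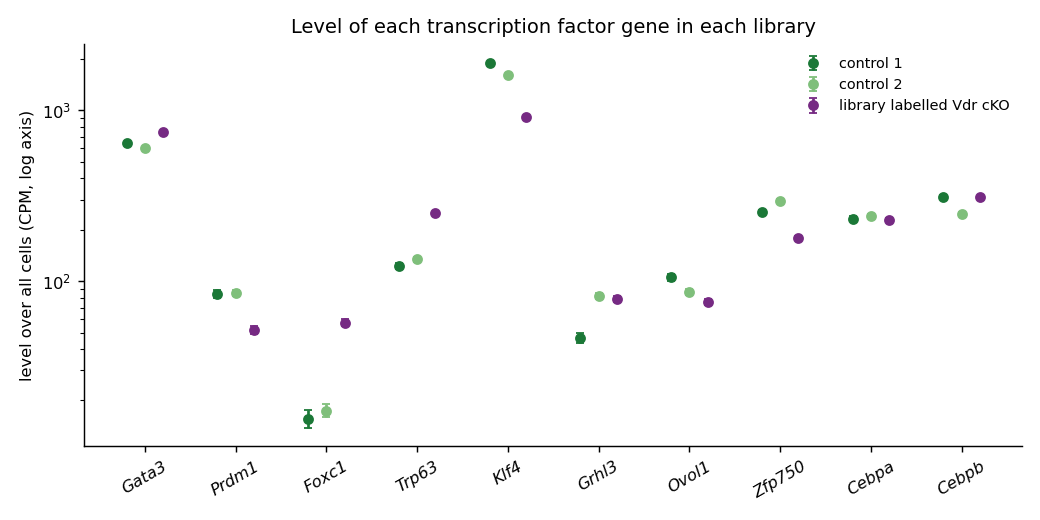
Level of each of the 10 genes (CPM, log axis) in control 1, control 2 and the *Vdr* cKO-labelled library, as points with exact 95% Poisson intervals. *Foxc1* and *Trp63* lie above both controls in the *Vdr* cKO-labelled library (57.2 and 249 CPM), and *Klf4*, *Prdm1* and *Zfp750* lie below both (909.7, 51.7 and 179 CPM).

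Markers of other states moved with these levels. Summed over 11 genes of basal keratinocytes, the level was 9113, 7741 and 17513 CPM, and 6 of the 11 were over 2-fold higher than both controls in the *Vdr* cKO-labelled library (*Krt5*, *Krt14*, *Krt15*, *Col17a1*, *Dst* and *Lamb3*). The 7 spinous genes summed to 74408, 84845 and 55800.2 CPM, with none called, and the 14 granular genes to 23524, 23833 and 19414 CPM, with *Flg* over 2-fold lower. *Tgm1*, at 64.7, 67.4 and 78.3 CPM, and *Tgm3*, at 12.5, 11.9 and 20.3 CPM, were above both controls. The rest of the granular genes were below both. The 7 IRS genes summed to 0.585, 2.54 and 235 CPM, with *Tchh* called higher and 6 of the 7 at 0 in a library. The 5 companion layer genes summed to 687, 813 and 2359.8 CPM, with *Krt6a* and *Krt17* higher. The 7 bulge genes summed to 3026, 2158 and 7975 CPM, with *Sox9*, *Postn* and *Krt15* higher. Most of this sum was *Krt15*, which is also in the basal list, at 2944, 2122 and 7648 CPM. *Sox9* was at 56.3, 24.3 and 187 CPM and *Postn* at 8.24, 3.21 and 76.9 CPM. The 9 listed hair shaft and matrix genes summed to 4.68, 10.8 and 66.3 CPM, with none at 50 CPM. Of the genes called higher here, *Lamb3*, *Tchh*, *Krt6a* and *Postn* reached 50 CPM only in the *Vdr* cKO-labelled library. They could thus be called in the higher direction alone. The sum of the 9 sebaceous genes went the other way, at 3481, 2141 and 1639 CPM, with *Scd3*, *Awat2* and *Far2* lower. *Mgst1*, at 405, 176 and 377 CPM, *Fasn*, at 150, 59.4 and 98.4 CPM, and *Elovl3*, at 60.7, 23.9 and 52.5 CPM, lay between the controls. The rest of the sebaceous genes were below both.

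Transcripts of other cells were scarce. T cell genes summed to 185, 106 and 228 CPM, antigen-presenting cell genes to 193, 269.8 and 342 CPM, and melanocyte genes to 11.1, 10.04 and 56.1 CPM. Fibroblast genes were at 8.72, 0.767 and 3.78 CPM and endothelial genes at 10.5, 2.79 and 2.10 CPM. The 8 cycling genes summed to 119, 86.8 and 289 CPM, with *Top2a* and *Cenpf* called higher. *Top2a* and *Cenpf* reached 50 CPM only in the *Vdr* cKO-labelled library, so they could be called in the higher direction alone. *Mki67*, at 26.9, 11.3 and 54.6 CPM, missed the call through the 1 CPM added. The 12 genes of dissociation stress, immediate early genes that rise while cells are released, summed to 2268, 2144 and 4961 CPM, and 6 of the 12 were called higher (*Fos*, *Fosb*, *Jun*, *Junb*, *Atf3* and *Dusp1*). Levels at a like *Krt14*, *Krt10* or *Lor* level are given below, and the part of the other lists in the levels of the factors was not tested.

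A wider list of 26 epidermal transcription factors gave a background of like genes. Of these, 17 had at least 50 CPM in a library, 1 was called over 2-fold higher than both controls and 0 were called lower. The one was *Hes1*, a Notch target, at 65.2, 86.3 and 220.2 CPM. *Nfe2l2*, at 23.6, 31.6 and 64.0 CPM, was over 2-fold higher by its levels and missed the call through the 1 CPM added. Of the others, *Rora*, a nuclear receptor, was at 909, 937 and 493 CPM, *Klf3* at 785, 835 and 512 CPM, *Grhl1*, a relative of *Grhl3*, at 624, 589 and 370.2 CPM, *Pou3f1* at 427, 362 and 363 CPM and *Klf5* at 407, 275 and 479 CPM. *Rora*, *Klf3* and *Grhl1* were thus below both controls and *Klf5* above both. The median log2 fold over all 26 genes was 0.24. Genes of the list under 50 CPM in every library could not be called. Among these, *Grhl2*, at 9.25, 7.95 and 21.5 CPM, *Ovol2*, at 0.798, 1.29 and 13.5 CPM, *Msx2*, at 1.81, 2.34 and 12.1 CPM, and *Elf3*, at 0, 0 and 1.29 CPM, were over 2-fold higher than both controls with 1 CPM added. None of them was over 2-fold lower.

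The second question was where along differentiation each factor was found. Cells were binned by their own CPM of *Krt14*, *Krt10* or *Lor*. Cells with no count of the marker formed a bin, and the others were put into low, middle and high bins with the same edges in every library, at 784 and 2641 CPM for *Krt14*, 15662 and 31079 CPM for *Krt10* and 3842 and 12520 CPM for *Lor*. By *Lor*, the no-count bin held 41, 35 and 101 cells and the high bin 516, 593 and 695 cells. The libraries filled these bins unequally: 14.3%, 10.6% and 28.9% of cells were in the high *Krt14* bin, and 43.9%, 39.6% and 16.1% were in the high *Krt10* bin. The no-count bin of *Krt10* held 2, 10 and 16 cells and was not read.

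*Prdm1* was concentrated in the cells with most *Lor*, the granular marker. From the no-count to the high *Lor* bin, *Prdm1* was at 20.2, 38.5, 53.4 and 201 CPM in control 1, at 3.26, 16.0, 23.2 and 271 CPM in control 2 and at 0, 20.4, 26.3 and 114 CPM in the *Vdr* cKO-labelled library. In CPM, the step to the high bin was the widest in each library. Between the low and the high *Lor* bin the log2 ratio was 2.35, 3.996 and 2.42. Against a floor of 3 counts in its no-count bin, the high bin of the *Vdr* cKO-labelled library was at least 23.1-fold higher. *Prdm1* was the 1 factor over 2-fold higher in the high than in the no-count bin in every library, where 7.28% of genes with at least 50 CPM in every library were, and 3.71% against the low bin. In control 1 the log2 ratio of the high over the no-count bin went from 3.25 to 0.94 when the CPM of each cell was averaged and to 0.82 with thinned cells, so that the call was lost. These 2748 genes include 8 of the 10 factors, all but *Foxc1* and *Grhl3*.

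*Gata3* and *Trp63* had lower levels in the high than in the no-count *Lor* bin of each library. *Gata3* was at 1250.3, 761, 555 and 429.6 CPM in control 1, at 885, 709.6, 617 and 342 CPM in control 2 and at 938, 888, 749 and 534 CPM in the *Vdr* cKO-labelled library. It went down at every step in every library, and its step from the no-count to the high bin exceeded 2-fold in the controls and was 1.76-fold in the third. *Trp63* was at 334, 140.4, 94.4 and 90.7 CPM, at 159.9, 163, 120.4 and 81.4 CPM and at 400.2, 319.7, 234 and 154 CPM. The direction of *Trp63* in the controls depended on the weight of cells: with thinned cells the log2 ratio was 0.35 in control 1 and 0.081 in control 2, and with the CPM of each cell averaged it was 0.20 and -0.094. *Trp63* was above both controls in all 4 bins of the *Vdr* cKO-labelled library. No factor was over 2-fold lower in the high than in the no-count *Lor* bin in every library, where 0.983% of genes were.

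*Klf4* was below both controls in all 4 *Lor* bins, at 605, 804, 836 and 1119 CPM in the *Vdr* cKO-labelled library against 2440.1, 1786, 1659 and 2219.7 CPM in control 1 and 1312, 1529.7, 1301 and 2017 CPM in control 2. Within each library the high bin was above the low bin, by 0.31, 0.40 and 0.48 on the log2 scale. *Grhl3* and *Ovol1* were also higher in the high than in the low bin in each library. *Ovol1* was at 97.1 and 105 CPM in these bins of control 1, at 70.4 and 123 CPM in control 2 and at 42.5 and 117 CPM in the third library. *Zfp750* hardly differed between the low and high bins, at 259 and 257, 292 and 263, and 185 and 192 CPM. *Cebpa* went from 245 to 189.9 CPM, from 237 to 266 CPM and from 226 to 223 CPM, with no shared direction. *Cebpb* was highest in the middle bin of the controls, at 408 and 332 CPM, and in the high bin of the third library, at 366 CPM.

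**Figure D2:**
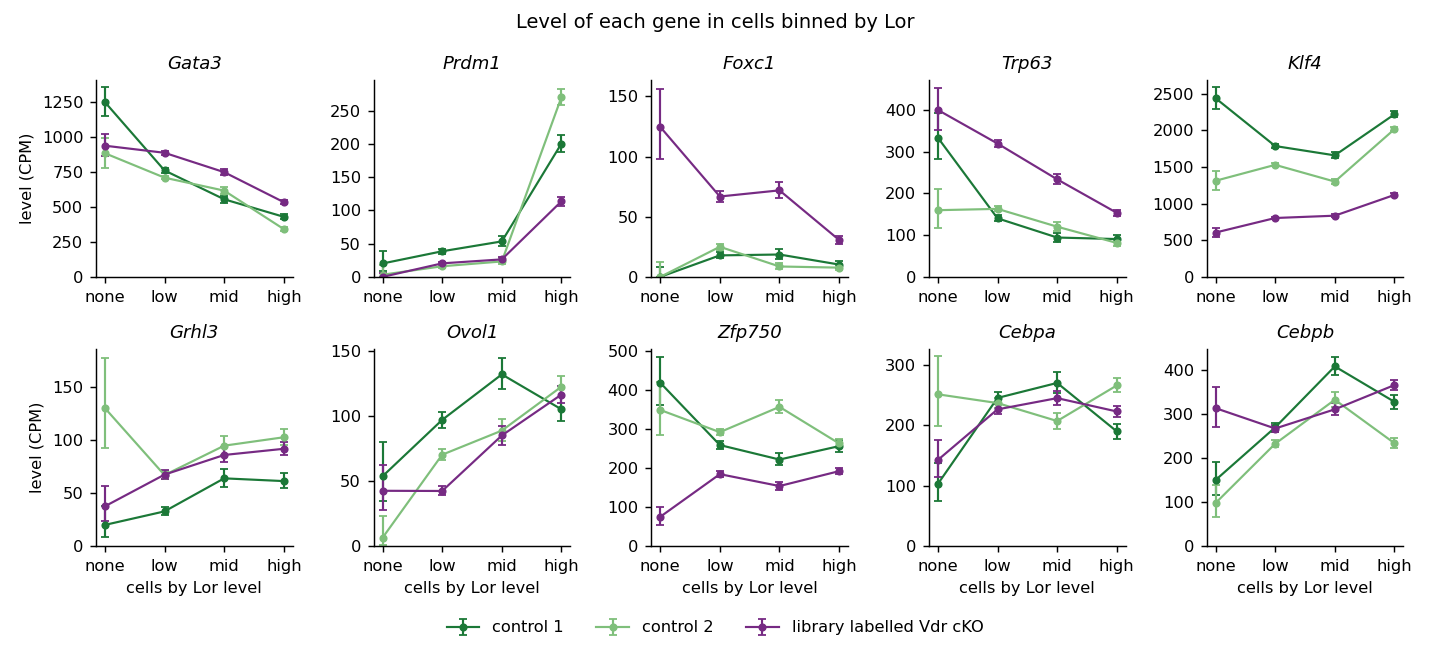
Level (CPM, each panel with its own axis from 0) of each gene in the no-count, low, middle and high *Lor* bins of each library, with exact 95% Poisson intervals. *Prdm1* reaches 201, 271 and 114 CPM in the high bin, *Gata3* goes down at each step, and the line of *Klf4* in the *Vdr* cKO-labelled library runs below both controls.

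Within the high *Lor* bin, *Prdm1* also differed by *Krt10*, the spinous marker. This bin has no upper edge, so its cells are not at the same *Lor* level. Over all cells of the low and high *Krt10* bins, whatever their *Lor* bin, *Lor* was at 30465 and 5628 CPM, 37251.5 and 4717 CPM, and 10660 and 12293.5 CPM. The *Lor* level by *Krt10* within the high *Lor* bin is not given here. The *Prdm1* levels below were thus not separated from the *Lor* level of the cells. In cells of the low *Krt10* bin that were in the high *Lor* bin, *Prdm1* was at 498, 537 and 166 CPM, with counts in 27 of 108, 47 of 168 and 38 of 260 cells. In the other 8 combinations of the low, middle and high bins it lay between 3.06 and 181 CPM over all libraries. The highest level of each library was thus in cells with little *Krt10* and much *Lor*, and that of the *Vdr* cKO-labelled library was 166 CPM, inside the range of other combinations. *Klf4* in these cells was at 3469, 2584 and 874 CPM. Along *Krt10* alone, *Prdm1* went from 238 to 26.6 CPM and from 295 to 32.2 CPM between the low and high bins of the controls and was at 55.2 and 42.4 CPM in the third library.

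**Figure D3:**
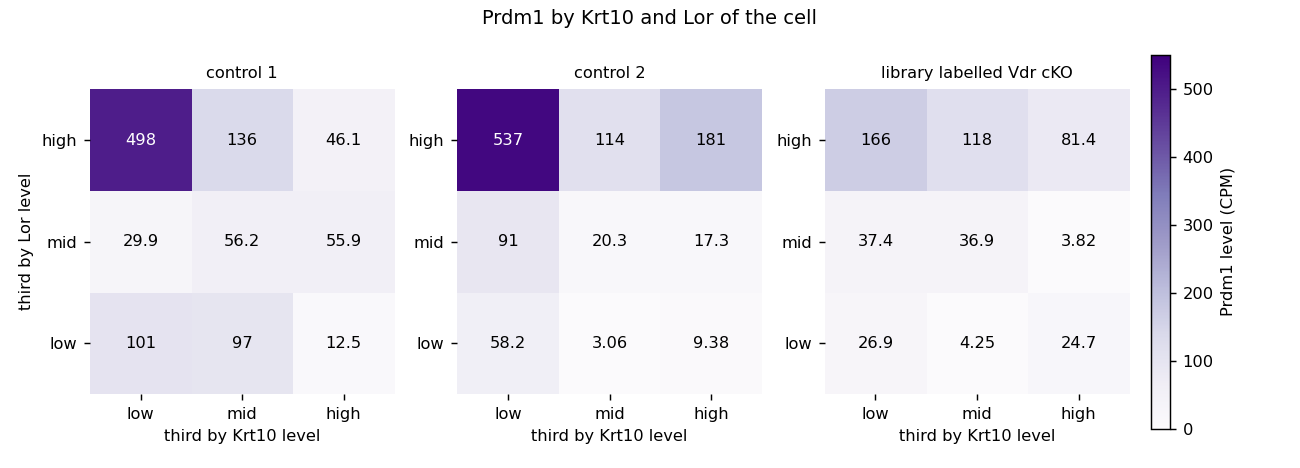
*Prdm1* level (CPM, colour and number) in the 9 combinations of the low, middle and high *Krt10* bins (horizontal) and *Lor* bins (vertical) of each library. The low *Krt10* and high *Lor* combination is the highest in each library, at 498, 537 and 166 CPM.

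Along *Krt14*, the basal marker, *Foxc1* stood apart. From the no-count to the high *Krt14* bin it was at 4.04, 4.82, 15.7 and 106 CPM in control 1, at 12.2, 4.05, 26.3 and 89.0 CPM in control 2 and at 20.4, 48.0, 71.2 and 65.4 CPM in the *Vdr* cKO-labelled library. The level was highest in the high bin in the controls and in the middle bin in the third library, although in control 2 the no-count bin held about as many *Foxc1* counts as the high bin, 199 in 27 of 1001 cells against 197 in 12 of 175 cells. In the high bin the *Vdr* cKO-labelled library was the lowest of the 3, and in the other bins it was the highest. *Foxc1* was the 1 factor over 2-fold higher in the high than in the no-count bin in every library, where 2.81% of the 6472 genes with at least 10 CPM in every library were. The high bin of the controls held *Foxc1* in 9 and 12 cells only. When the CPM of each cell was averaged, so that cells of many counts had no extra weight, the log2 ratio of control 2 was -0.094 and the call was lost, as it was with thinned cells or with each gene counted once per cell.

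*Trp63* followed *Krt14* in the *Vdr* cKO-labelled library, with 159, 166, 252 and 368 CPM from the no-count to the high bin. In control 1 it was at 125, 141, 118 and 75.2 CPM and in control 2 at 139, 114, 133 and 164 CPM. The gap between libraries was thus widest in the high *Krt14* bin. *Klf4* went down along *Krt14*, from 2084 to 1148 CPM, from 1827 to 788 CPM and from 1081 to 742 CPM. *Ovol1* went from 125 to 29.96 CPM, from 99.0 to 16.7 CPM and from 119 to 60.7 CPM. *Gata3*, *Grhl3*, *Zfp750* and *Cebpb* were also lower in the high than in the no-count bin in each library, some by little: *Gata3* was at 777 and 766 CPM in these bins of the *Vdr* cKO-labelled library. None of the 6 was over 2-fold lower in every library, where 1.24% of genes with at least 50 CPM were.

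**Figure D4:**
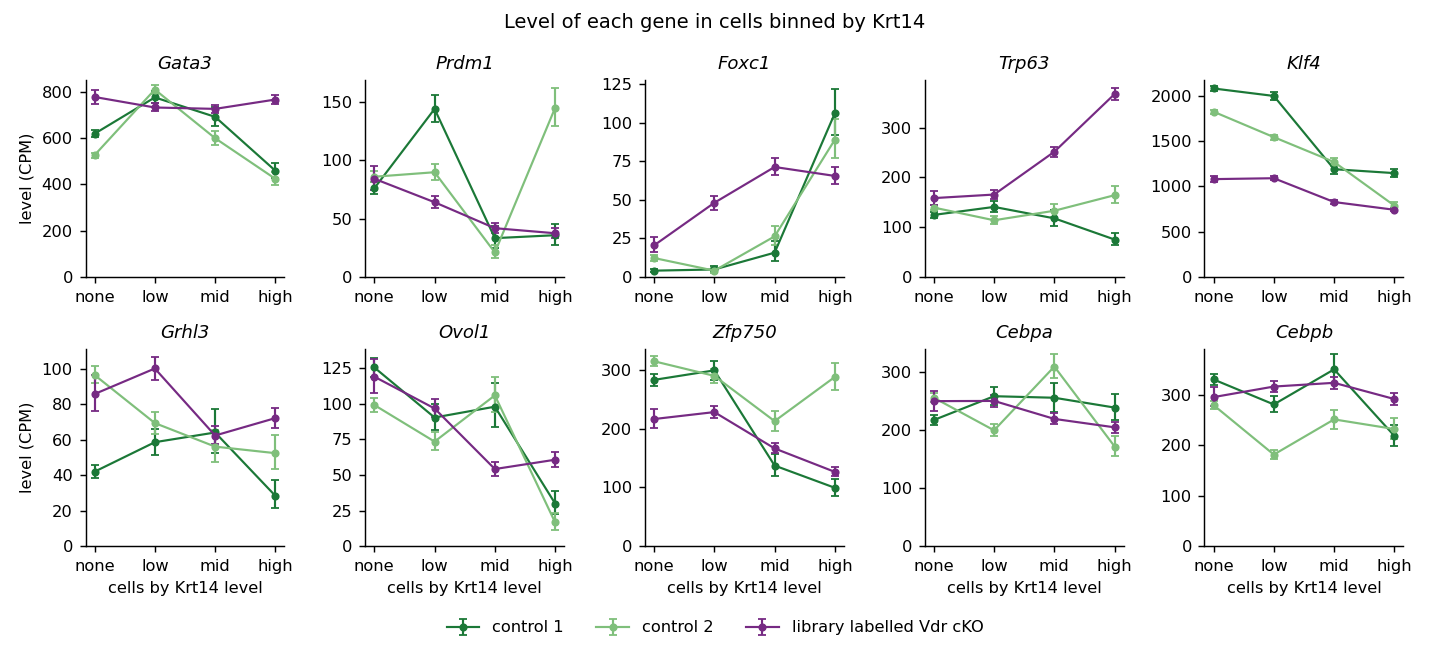
Level (CPM, each panel with its own axis from 0) of each gene in the no-count, low, middle and high *Krt14* bins of each library, with exact 95% Poisson intervals. *Foxc1* reaches 106 and 89.0 CPM in the high bin of the controls, and *Trp63* reaches 368 CPM in that of the *Vdr* cKO-labelled library.

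Along *Krt10*, no factor was over 2-fold higher in the high than in the low bin in every library, where 4.33% of genes with at least 50 CPM were. *Foxc1* was over 2-fold lower in every library, with 48.1 and 9.07 CPM, 74.5 and 2.80 CPM, and 80.6 and 39.7 CPM in the low and high bins, where 3.58% of genes with at least 10 CPM were. In control 1 this direction was turned when the CPM of each cell was averaged (log2 ratio 1.27) and with thinned cells (0.44), and 1 cell held 43.7% of its *Foxc1* counts. *Zfp750* came nearest on the higher side, at 141 and 283, 182 and 339, and 103 and 266 CPM. *Grhl3*, *Cebpa* and *Cebpb* were also higher in the high bin of each library. *Klf4* was at 1813 and 1998, 1655 and 1591, and 694 and 1101 CPM, *Ovol1* at 79.4 and 129, 122 and 84.6, and 38.0 and 99.6 CPM, and *Trp63* at 50.8 and 163, 112 and 131, and 330.1 and 181 CPM, none with a shared direction. *Gata3* was at 511 and 744 CPM and at 319.7 and 705 CPM in the low and high bins of the controls and at 821 and 651 CPM in the third library, so its direction was not shared.

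The bins also allowed the libraries to be set side by side at a like make-up. Each library was averaged over the bins with the mean weights of the controls. By *Krt14*, the log2 fold of *Foxc1* went from 1.73 to 1.09, that of *Trp63* from 0.95 to 0.53, that of *Prdm1* from -0.70 to -0.26 and that of *Klf4* from -0.95 to -0.77. With these weights no factor was over 2-fold from both controls. By *Krt10*, the log2 folds of these 4 genes were 1.55, 0.79, -0.78 and -0.83. By *Lor* they were 1.79, 1.03, -0.86 and -0.98, each further from 0 than without weights. *Klf4* was below both controls and *Trp63* above both in every bin that was read, of each marker.

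Sebaceous cells were looked at because *Prdm1* and *Cebpa* are known from them. The sebaceous gland is also a site of Foxc1 in the paper. Cells with at least 3 of the 9 sebaceous genes detected and at least 1% of their counts in the list numbered 40, 43 and 61, and the list made up 37701, 41909 and 18075 CPM in them. In the controls *Foxc1* was at 115 and 242 CPM in these cells and at 8.33 and 7.64 CPM in the others, and in the *Vdr* cKO-labelled library at 43.3 and 58.0 CPM. Only 6, 12 and 10 of the cells had a *Foxc1* count. In control 1, 1 cell held 43.7% of all 293 *Foxc1* counts of the library. It was among the 40 sebaceous-rich cells, which together held 147 counts. The 115 CPM of control 1 thus came mostly from 1 cell. *Trp63* went the other way in the controls, at 1.56 against 132 CPM and 5.85 against 140 CPM, and was at 228 and 250.3 CPM in the third library. *Klf4* was at 130 against 2019.9 CPM, 34.3 against 1689 CPM and 505 against 933 CPM.

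For *Foxc1*, *Trp63* and *Klf4*, the separation of the controls was thus smaller, or for *Foxc1* not in the same direction, in the *Vdr* cKO-labelled library, where the sebaceous list itself was lower in the chosen cells. *Prdm1* was at 32.9 against 87.6 CPM, 90.3 against 84.8 CPM and 59.3 against 51.3 CPM, with no shared direction. *Cebpa* was higher in the sebaceous-rich cells of each library, at 286 against 228 CPM, 351 against 235 CPM and 248 against 226 CPM, and so was *Cebpb*, at 347 against 307 CPM, 338 against 244 CPM and 520.4 against 297 CPM. *Grhl3* was lower in them, at 10.95 against 49.0 CPM, 0 against 85.6 CPM and 23.1 against 82.2 CPM, and so were *Ovol1*, at 45.4 against 109.5 CPM, 5.02 against 90.3 CPM and 15.4 against 79.1 CPM, *Zfp750*, at 94.6 against 267 CPM, 262 against 297 CPM and 155 against 180.1 CPM, and *Gata3*, at 422 against 661 CPM, 532 against 601 CPM and 709 against 746 CPM. With a limit of 0.2% of counts, which took 126, 75 and 173 cells, *Foxc1* was over 2-fold higher in both controls, where 7.69% of genes with at least 10 CPM in every library were, and *Trp63* and *Klf4* were over 2-fold lower, where 20.1% were. With 0.2%, none of the 10 was called in every library, where 3.62% were higher and 4.16% lower. With 1%, *Grhl3* and *Ovol1* were over 2-fold lower in every library, and the share over all genes is not given at that limit. This comparison with 1% was added after the values with 0.2% were known.

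**Figure D5:**
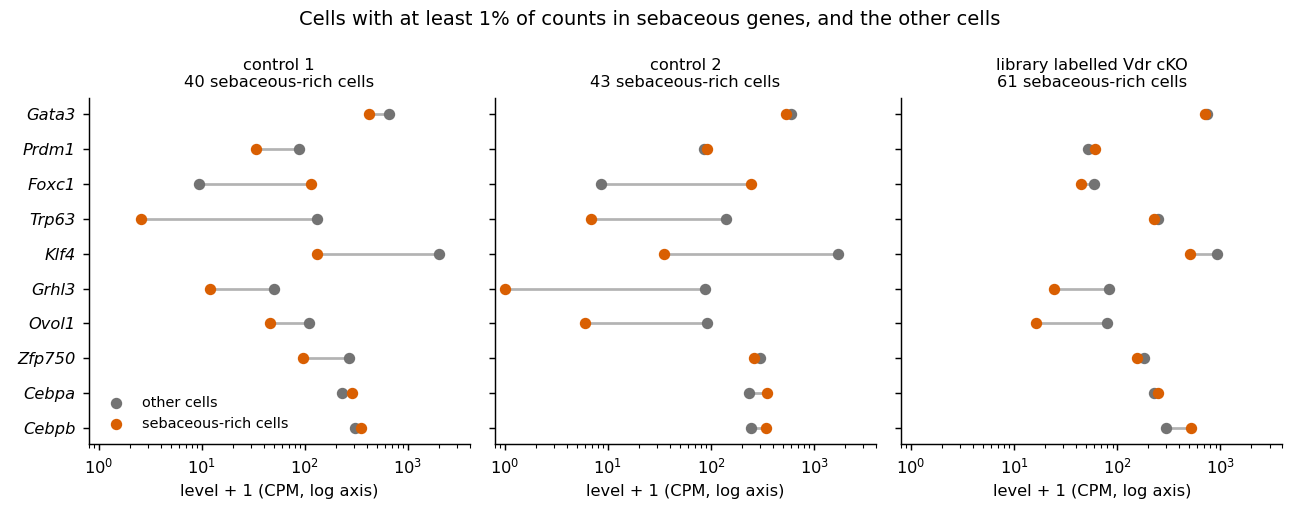
Level plus 1 (CPM, log axis) of each gene in cells with at least 1% of counts in sebaceous genes (orange) and in the other cells (grey) of each library. In the controls *Foxc1* lies higher in the sebaceous-rich cells (115 and 242 CPM) and *Trp63* and *Klf4* lower. The 115 CPM of control 1 came mostly from 1 cell. In the *Vdr* cKO-labelled library the pairs of *Foxc1* and *Trp63* lie close together.

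Cells were also chosen with at least 3 of the 11 basal keratinocyte genes detected and at least 0.2% of counts in them. They numbered 803, 876 and 2421, or 54.3%, 52.8% and 92.3%. This limit selects weakly, as the list summed to 9113, 7741 and 17513 CPM over all cells. *Krt14*, a gene of the list, was higher in the chosen cells. *Krt10* was at 34471 against 36370 CPM, 32478 against 33655 CPM and 24164 against 24270.5 CPM in the other cells. The chosen cells are thus not read as basal cells. *Foxc1* was higher in them than in the other cells of each library, at 22.4 against 4.48 CPM, 20.6 against 12.7 CPM and 58.3 against 10.8 CPM. *Prdm1* was lower in them, at 67.7 against 110.3 CPM, 67.6 against 111 CPM and 49.97 against 123 CPM, and so was *Klf4*, at 1799.8 against 2041 CPM, 1474 against 1836 CPM and 905 against 1107 CPM. *Trp63* was at 114 against 137 CPM, 159.8 against 96.3 CPM and 250.5 against 191 CPM, with no shared direction.

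Bulge-rich, companion-rich, T cell-rich, antigen-presenting-rich and cycling-rich cells reached 20 in the *Vdr* cKO-labelled library alone, so they give no comparison between libraries. All had deeper cells than the rest, with a median of 13340 against 3747 counts for bulge-rich and 12190.5 against 3974 for companion-rich cells. It was 7666 against 4014 counts for cycling-rich and 10259 against 4020 for T cell-rich cells. The bulge list was at 11351 CPM in bulge-rich and 6911 CPM in other cells, so its 0.2% limit selected weakly. In the 249 bulge-rich cells *Prdm1* was at 16.6 CPM (13.8 to 19.8) against 62.8 CPM in the others, and *Trp63* was at 327 against 224 CPM. *Foxc1*, which is known from bulge stem cells, was at 61.2 against 55.9 CPM there. In the 51 cycling-rich cells *Zfp750* was at 55.6 against 182 CPM, *Cebpa* at 105 against 231 CPM, *Ovol1* at 26.1 against 77.1 CPM and *Grhl3* at 31.7 against 80.3 CPM. *Prdm1* was at 18.1 against 52.7 CPM in them, *Foxc1* at 44.2 against 57.6 CPM and *Klf4* at 702 against 916 CPM, while *Trp63* was at 300.5 against 248 CPM, *Gata3* at 779 against 743 CPM and *Cebpb* at 315 against 309 CPM. In the 64 companion-rich cells *Ovol1* was at 139 against 71.3 CPM. *Gata3* was at 862 against 743 CPM in the 25 T cell-rich cells, and the 11 IRS-rich cells were too few to read.

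Shares of cells with a count were compared after each cell was thinned to 1000 counts, which kept 1466, 1597 and 2562 cells. Thinning makes counts equal, not molecules. The median cell had 91.9, 118 and 165 genes per 1000 counts before thinning, and the shares are not corrected for this difference. *Gata3* was found in 21.5%, 24.2% and 36.0% of cells and *Klf4* in 37.7%, 42.7% and 32.5%. *Trp63* was found in 4.37%, 6.95% and 13.5%, and *Foxc1* in 0.955%, 1.25% and 3.28% (2.62% to 4.04%, exact binomial interval). *Cebpa* was found in 10.6%, 12.8% and 12.5%, *Cebpb* in 12.4%, 12.6% and 15.8% and *Zfp750* in 8.32%, 9.46% and 8.16%. *Prdm1* was found in 2.93%, 3.38% and 2.58% and *Ovol1* in 3.55%, 3.94% and 3.67%, so both differed little between libraries. *Grhl3* was found in 3.07%, 3.51% and 4.57%, so the third library was above both controls, with intervals that overlapped. Before thinning, *Gata3* was in 35.6%, 43.4% and 62.1% of cells, *Klf4* in 49.9%, 60.4% and 55.3%, *Trp63* in 10.9%, 17.5% and 32.0% and *Foxc1* in 1.96%, 3.74% and 9.27%. The position of *Klf4*, *Prdm1* and *Zfp750* below both controls in the share of cells was not kept without thinning, where the third library lay between the controls.

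A share may also hold free RNA from other cells. In 34 antigen-presenting-rich cells of the *Vdr* cKO-labelled library, *Trp63* was found in 14.7% (4.95% to 31.1%) after the same thinning, and *Krt10* in 91.2%. *Krt10* was at 32278 CPM in them against 23951 CPM in the others, and *Lor* at 16361 against 11813 CPM. These cells were thus not told apart from keratinocytes or doublets, and they give no clean measure of free RNA. *Gata3* was found in 44.1% of them, *Klf4* in 35.3%, *Cebpa* in 20.6%, *Cebpb* in 14.7%, *Zfp750* in 5.88%, and *Foxc1*, *Prdm1*, *Grhl3* and *Ovol1* in 2.94%, or 1 cell each. These cells had a median of 7713.5 counts against 4013 in the others. Only *Trp63*, *Grhl3*, *Ovol1* and *Zfp750* were planned for this comparison, as factors that antigen-presenting cells are not known to use. The shares of *Trp63*, *Grhl3*, *Ovol1* and *Zfp750* in all cells of that library were within the intervals of these cells. For the other factors, such as *Cebpa*, which is known from myeloid cells, the values give no background. No share is read as a share of expressing cells. Such cells numbered 4 and 8 in the controls, too few for a background. In the same 34 cells the level of *Foxc1* was 1.25 CPM (0.032 to 6.96), from 1 count, against 58.7 CPM in the others.

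Cells with a count of a Y-linked gene and none of *Xist* were compared on their own because of the sex difference between the libraries. They numbered 213, 370 and 160, with a median of 12048, 24223 and 6524 counts. Cells with neither kind of count had a median of 3932, 3511 and 3229.5, so the choice took deeper cells, unequally by library. In the *Vdr* cKO-labelled library 110 cells had both kinds, so these counts do not assign sex cleanly. In the cells with a Y-linked count and no *Xist* count, *Foxc1* was at 18.1, 17.1 and 65.7 CPM and *Trp63* at 101, 126 and 182 CPM. *Klf4* was at 2076, 1506 and 1007 CPM and *Prdm1* at 43.1, 69.1 and 21.2 CPM. The direction was that of all cells for each of the 4 genes. *Zfp750* was at 289.7, 300.4 and 159 CPM and *Ovol1* at 118, 102 and 79.2 CPM, also below both controls, and *Gata3* at 608, 587 and 744 CPM, above both. *Grhl3* was at 48.4, 80.9 and 91.3 CPM, *Cebpa* at 253, 212 and 231 CPM and *Cebpb* at 346, 216 and 331 CPM. Within the *Vdr* cKO-labelled library, the 630 cells with *Xist* and no Y-linked count had *Foxc1* at 63.4 CPM and *Klf4* at 939 CPM, while *Prdm1* was at 53.5 CPM there against 21.2 CPM in the 160 cells above.

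Genes whose level followed each factor closely over the 12 points of 4 *Lor* bins in 3 libraries were listed for description. Cells are shared within a point, *Lor* orders all points, and 2748 genes were compared. *Gata3* was followed by *Krt1* (Pearson's r 0.98) and *Rpl5* (0.98), *Trp63* by *Pabpc1* (0.99), *Smc1a* (0.97) and *Rala* (0.97), and *Prdm1* by *Krt80* (0.97), *Rnf11* (0.97) and *Aif1l* (0.96). *Klf4* was followed by *Pim1* (0.93), *Tnfaip1* (0.87) and *Acadvl* (0.87), and *Foxc1* by *Setd5* (0.92), *Abcf1* (0.91) and *Glud1* (0.90). *Grhl3* was followed by *Csnk2b* (0.94), *Mlf2* (0.93) and *Tgm1* (0.92), the last of which encodes a cross-linking enzyme of the cornified envelope. *Ovol1* was followed by *Tmed5* (0.97), *Zfyve9* (0.96) and *Ndel1* (0.95), *Zfp750* by *Atg3* (0.92), *Mycbp* (0.91) and *Tlk2* (0.90), *Cebpa* by *Sytl1* (0.96), *Abhd6* (0.96) and *Rpl7l1* (0.94), and *Cebpb* by *Epha1* (0.95), *Defb1* (0.94) and *Rnf13* (0.94). Among the 45 pairs of factors, over 33 points of all 3 markers, r was highest for *Gata3* with *Trp63* (0.70) and *Ovol1* with *Cebpb* (0.69), and lowest for *Foxc1* with *Zfp750* (-0.74) and *Gata3* with *Prdm1* (-0.73).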

How the data were processed

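Single-cell libraries of P18 dorsal skin were made by the authors on the Nadia instrument (RNAdia 2.0 kit) and sequenced on NovaSeq. The authors deposited raw counts per gene and barcode for 2788, 2460 and 2782 barcodes, without normalization; the build in the submitters' processing notes is mm10, Seurat is named for alignment, and a counter and a rule for collapsing PCR copies are not given in the sources used here. A value of 1 made up 14.5%, 22.2% and 26.9% of the values above 0, and the median cell had 91.9, 118 and 165 genes per 1000 counts, so copies of a molecule may have been counted to a different extent in each library.

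A barcode was kept as a cell when it had 200 or more detected genes and no more than 20% of its counts from mitochondrial genes; no doublet caller was run and none were removed. Counts were summed over cells and divided by the total to give CPM, and log2 folds used 1 CPM added. A gene was called when the *Vdr* cKO-labelled library was over 2-fold from both controls after 1 CPM was added, with at least 50 CPM in a library. Bins under 20 cells were not read. The edges of the bins weight the libraries equally. Shares used cells thinned to 1000 counts, with exact binomial intervals. Likeness used log2 of CPM plus 10, centred in each library, and took the 3 genes of highest r per factor, of which 1 is not reported here. The rule was to name all 10 factors in every comparison; all 10 were computed in each, but bins and cells rich in a list are not printed for every factor. From the lists, the called genes and up to 4 others of high level were named. *Nfe2l2*, *Grhl2*, *Ovol2*, *Msx2*, *Elf3*, *Mki67*, *Klf5*, *Tgm1*, *Tgm3*, *Mgst1*, *Fasn* and *Elovl3* were added after their values were seen. The 10 factors, the lists and the alternatives were chosen with earlier results of these data known. Cells with 1% of counts in the sebaceous list, the *Krt10* by *Lor* grid, control weights, the cells with a Y-linked count and the removal of shared barcodes or of the 5 leading cells were chosen after seeing the data.

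Positions are from GENCODE M21 (GRCm38), in which 97.6% of symbols were found, and promoters from RefSeq (GRCm38.p6). Python 3.11.15, numpy 2.4.6, scipy 1.17.1, pandas 2.3.3 and matplotlib 3.10.9 were used, with R 4.3.3, edgeR 4.0.16 and DESeq2 1.42.0 for scaling factors. The procedures were tested on simulated data. No p-value was computed.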

Additional observations from a re-analysis of the deposited data

Results flagged for a closer look

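In 4 cases the log2 ratio between the top and the bottom bin had one sign in both controls and the other in the *Vdr* cKO-labelled library. The difference was not tested in any of them. *Gata3* between the low and high *Krt10* bins had a log2 ratio of 0.54 and 1.14 in the controls and -0.33 in the *Vdr* cKO-labelled library. *Trp63* between the same bins had 1.66 and 0.23 in the controls and -0.86 in the *Vdr* cKO-labelled library, although the second control is close to 0. *Zfp750* between the no-count and high *Lor* bins had -0.71 and -0.41 in the controls and 1.34 in the *Vdr* cKO-labelled library, where its no-count bin was at 75.5 CPM from 46 counts in 14 cells.

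*Foxc1* between the no-count and high *Lor* bins had 3.49 and 3.12 in the controls and -1.99 in the *Vdr* cKO-labelled library. The no-count bin of the controls, of 41 and 35 cells, held 0 *Foxc1* counts, so these ratios depend on the 1 CPM added. Against a floor of 3 counts the high bin of control 1 was at least 1.53-fold higher, and the high bin of control 2, at 7.70 CPM, was under the floor of 9.79 CPM.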

How the results depend on the processing

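The count of factors over 2-fold from both controls was 1 (*Foxc1*). It was 2 with edgeR TMM factors and 2 with DESeq2 median-of-ratios factors, which added *Klf4* on the lower side and moved the median log2 fold of all genes to -0.18 and -0.21. It was 0 when CPM was averaged over cells, 0 with *Krt14* bin weights (added after seeing the data) and 4 at 1.5-fold, and it ranged from 1 to 3 without each control, with *Trp63* higher and *Klf4* lower added without control 2. The genes called overall were 197, and 829 at 10 CPM, 2092 with no filter, 344 without control 1, 380 without control 2 and 373 in cells with a Y-linked count. Over 17 settings the log2 fold of *Foxc1* was between 1.09 and 2.66, of *Trp63* between 0.53 and 1.21, of *Klf4* between -1.16 and -0.56, of *Prdm1* between -1.36 and -0.26, of *Zfp750* between -0.89 and -0.39 and of *Gata3* between 0.047 and 0.47. *Grhl3*, *Ovol1*, *Cebpa* and *Cebpb* changed sign in 1, 1, 3 and 5 settings, *Cebpb* with both scalings. The highest value of *Foxc1* came without the 5 leading cells of each gene, which moved the median of all genes to 0.27.

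For *Krt14* the count of factors was 1 and became 0 when CPM was averaged over cells, 0 with each gene counted once per cell and 0 with thinned cells; it was 1 to 1 without each control. For *Krt10* it was 0, and 1 to 1 (*Zfp750*) without each control. For *Lor* it was 1, and 2 with edges set within each library (*Ovol1* added), 0 when CPM was averaged over cells, 0 with thinned cells and 2 to 2 without each control (*Ovol1* or *Grhl3* added). The cause was not tested. Of 690 bin ratios under other settings, 459 stayed within 1 standard deviation of the ratios of the 2 controls and 216 moved further. Sign changes were counted apart only for log2 ratios of at least 1 in size, and there were 15 of these. When CPM was averaged over cells these log2 ratios were -0.094 for *Foxc1* along *Krt14* in control 2, 1.27 for *Foxc1* along *Krt10* in control 1, 0.20 for *Trp63* along *Lor* in control 1 and -0.51 for *Ovol1* along *Lor* in the *Vdr* cKO-labelled library. With thinned cells they were, in control 1, 0.44 for *Foxc1* and -0.39 for *Zfp750* along *Krt10* and 0.35 for *Trp63* along *Lor*. In the *Vdr* cKO-labelled library, thinning gave -0.14 for *Grhl3* along *Krt10*, 0.65 for *Foxc1* along *Lor* and -0.65 for *Ovol1* along *Lor*. Counted once per cell, *Gata3* along *Krt10* was -0.15 in control 2. *Foxc1* along *Lor* was -0.68 and -1.47 in the controls with 4 equal bins, and -0.75 and -1.58 with the low bin as the bottom. Of 90 shares of cells at other depths, 84 moved beyond their interval and 6 did not, since the share depends on depth.

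No paired analysis was possible because the groups share 1 replicate number and there is 1 *Vdr* cKO library. *Foxc1*, with 293 and 500 counts in the controls, had the fewest counts of the factors there.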
